A study of Mus musculus with 4 samples.

Results

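The regions described here are the p53 ChIP-Seq peaks of an ordered peak list that lie inside introns. The list holds 7384 peaks, which the authors numbered from the strongest gain of p53 binding with irradiation to the strongest loss. Those numbered 501 to 6501 were taken as the ranked range. By the group sizes given in the paper, this whole range lies among the peaks whose binding rose. A peak of this range was intronic when its centre lay more than 1 kb from every annotated transcription start site (TSS), inside a transcript and outside every exon. This gave 2175 intronic peaks of 6001 ranked peaks, or 36.2% of them (95% Wilson interval 35.04 to 37.47%). The other ranked peaks were intergenic (2979), at promoters within 1 kb of a TSS (712) or in exons (135).

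The list came from mouse hematopoietic progenitor lines, namely untreated HPC7 cells and Ba/F3 cells that were either left untreated or taken 3 h after 3 Gy of irradiation, each profiled for p53 by ChIP-Seq. A further library measured H3K27ac in irradiated Ba/F3 cells and is not analysed here. Both are established lines that, per the labels, stably expressed triple-FLAG-tagged MYSM1 under puromycin selection, also in the untreated cells. There was 1 library per condition and the list gives 1 position and 1 number per peak, with no value of a single library, so the depth is unknown and no difference between conditions could be tested here. The members were chosen by the peak number, that is by the measured change in binding, so the number is used only to describe them.

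p53 is a tetrameric transcription factor that is stabilised when DNA is broken and then drives arrest, repair or cell death programmes. It binds DNA at a pair of adjacent decamers, the half-sites, each built around a core that starts with C and ends with G, and CATG is the core most often linked to strong binding. Introns hold many well known p53 response elements, often in the first intron, where enhancers and alternative start sites are common.

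A p53 site was counted here when 2 half-sites of 10 bases, side by side, lay within 100 bp of the peak centre with both CNNG cores intact and at most 3 of 20 bases off the consensus. The following sites are those of the 10 intronic peaks with no mismatch and the lowest peak numbers, shown as examples of the 98 intronic sites that match the consensus fully. They are printed on the plus strand of mm9 with the 4 bases of each core in capitals.
Il1rapl2, intron 7, chrX:135339734-135339753: gggCATGcctgaaCTTGttt
Nrg3, intron 3, chr14:39380818-39380837: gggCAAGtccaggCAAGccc
Bmper, intron 13, chr9:23213126-23213145: gggCAAGttcaggCATGctt
Fntb, intron 3, chr12:77930535-77930554: gggCAAGtccaggCAAGcct
Syn3, intron 6, chr10:85648869-85648888: gggCAAGttcaggCAAGtcc
Gm16432, intron 11, chr1:180037739-180037758: gggCTTGcctgggCTTGctt
Alk, intron 1, chr17:72838336-72838355: aggCTTGcctgggCTTGcct
Tulp4, intron 1, chr17:6128280-6128299: gggCTTGcttagaCTTGccc
Nrg3, intron 2, chr14:39667804-39667823: gggCAAGttcaggCAAGccc
Xpo7, intron 1, chr14:71120637-71120656: aggCTAGcctaggCTAGttc
CAAG and CTTG, which read as each other on the opposite strand, made up most of these cores, and CATG appeared only in the sites of Il1rapl2 and Bmper. Nrg3, a neuregulin growth factor gene, held 2 of the 10. Alk encodes a receptor tyrosine kinase, Xpo7 a nuclear exportin and Fntb the beta subunit of protein farnesyltransferase. The sites of Fntb, Syn3, Gm16432 and Tulp4 and the second of Nrg3 belonged to a repeated sequence family, which is described next.

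Many peaks of the list had nearly the same sequence around their centres. When the 200 bp windows were joined wherever 80% of at least 100 bp were identical, 1155 peaks of the whole list fell into family 1 and 274 into family 2. Smaller groups of similar windows, which held 64 intronic peaks, were counted as outside the families. The window with the most similar peaks is printed for each, to show what the members share, with the 20 bases of the p53 site in capitals. The first lies in intron 17 of Iqch at chr9:63319696-63319895 and the second is intergenic at chr9:27362385-27362584, both on the plus strand of mm9.
family 1: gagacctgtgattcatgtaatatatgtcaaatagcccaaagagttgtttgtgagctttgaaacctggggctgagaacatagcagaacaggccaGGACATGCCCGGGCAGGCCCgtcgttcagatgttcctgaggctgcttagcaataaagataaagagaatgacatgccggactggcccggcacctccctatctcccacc
family 2: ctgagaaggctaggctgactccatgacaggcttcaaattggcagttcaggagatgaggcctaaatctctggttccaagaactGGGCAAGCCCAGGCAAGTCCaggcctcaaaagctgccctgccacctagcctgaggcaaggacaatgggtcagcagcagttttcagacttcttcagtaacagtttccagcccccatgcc
The site of the Iqch window had 1 mismatch, and 936 other peaks were similar to this window. The intergenic window had a site without mismatch and 101 similar peaks.

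The repeated families were much rarer among intronic than among intergenic peaks. Family 1 gave 205 of the 2175 intronic peaks (9.43%, 95% interval 8.27 to 10.7%) against 29.2% of the intergenic peaks (two-sided Fisher's exact test, Benjamini-Hochberg adjusted p = 2.7e-71 over 4 tests). Family 2 gave 51 intronic peaks (2.34%) against 6.01% of the intergenic ones (same test, exact, adjusted p = 1.6e-10). Per Mb of territory, family 1 supplied 0.224 peaks in introns and 0.590 between genes. No difference between first and later introns was detected for either family (Fisher's exact test, adjusted p = 0.70 for both), with family 1 at 9.80% of the peaks of first introns and 9.24% of those of later introns. Copies of a family share their sequence and are not independent, and how reads were assigned among near-identical copies was not tested.

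The family copies inside genes lay mostly in 1 direction. In 141 of the 205 intronic copies of family 1 (68.8%, 62.1 to 74.7%), the sequence printed above lay on the strand opposite to the host gene, and in 64 it lay along the gene. Family 2 had 41 of 51 intronic copies reversed to the host (80.4%, 67.5 to 89.0%). Among protein-coding hosts with introns of up to 1 Mb, 75.9% of the copies of family 1 were reversed. Most intronic copies carried a p53 site, 186 of 205 (90.7%) in family 1 and 47 of 51 (92.2%) in family 2. They were scattered over 185 and 51 host genes. Their peak numbers lay towards the end of the range for family 1, with a median of 5084 against 3496 for family 2.

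Of the 2175 intronic peaks, 1295 had a p53 site (59.5%, 57.5 to 61.6%). The same search found a site in 0.864% of the 914286 windows of eligible intron on a 1 kb grid of the genome. It found a site in 60.8% of all ranked peaks and in 54.4% of all peaks of the list. Of the sites at intronic peaks, 98 had no mismatch, 361 had 1, 473 had 2 and 363 had 3. The sites lay close to the peak centre, at a median of 9 bp (quartiles 4 and 18 bp), and 78.1% were within 20 bp of it. Of the 880 intronic peaks without a site, 448 had 2 half-sites of the same quality apart by a spacer of up to 13 bases, 165 had a site with 4 mismatches, some had both, and 343 had neither. A spacer gives many more ways to match, so these looser matches are a description only.

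Intronic peaks held a site less often than intergenic peaks and more often than promoter peaks when all were counted. The shares were 68.4% of intergenic peaks (adjusted p = 6.8e-11, Fisher's exact test over 3 tests) and 33.7% of promoter peaks (adjusted p = 8.6e-33). The sites were also further from the consensus than intergenic ones, with a mean of 1.85 ± 0.917 mismatches (SD, n = 1295) against 1.53 ± 0.954 (SD, n = 2039; two-sided permutation test, p = 1e-05, the smallest that 100000 resamples can give). Both differences from intergenic peaks were lost without the repeated families. Outside them, 55.3% of 1919 intronic and 55.4% of 1929 intergenic peaks had a site (Fisher's exact test, adjusted p = 1), and the mean numbers of mismatches were 2.04 and 2.00 (permutation p = 0.24). The gap to promoters remained, with 32.0% of 688 promoter peaks outside the families (exact test, adjusted p = 1.2e-25). Each test here runs over the peaks of 1 list, which do not stand for repeated experiments.

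**Figure D1:**
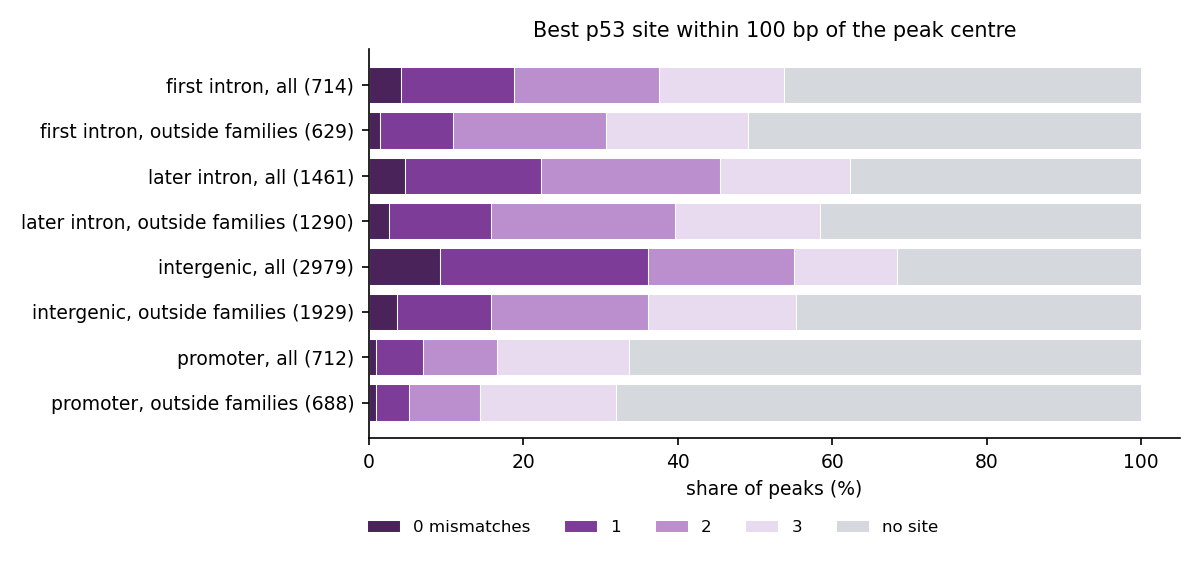
Share of ranked peaks (%) by the number of mismatches of the best p53 site within 100 bp of the peak centre, for first introns, later introns, intergenic peaks and promoters, with all peaks and with those outside the repeated families; the number of peaks is given in brackets. The dark segments of the intergenic bar shrink when the families are left out, from 9.23% to 3.63% for sites without mismatch, and outside the families a site was found in 49.1% of first-intron, 58.4% of later-intron and 55.4% of intergenic peaks.

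Peaks in first introns held a p53 site less often than peaks in later introns, and this did not rest on the families. The shares were 384 of 714 (53.8%, 50.1 to 57.4%) in first introns and 911 of 1461 (62.4%, 59.8 to 64.8%) in later introns (Fisher's exact test, adjusted p = 0.00016). Outside the families they were 49.1% and 58.4% (exact test, adjusted p = 0.00020). The share was lower in first introns in each band of distance to the nearest TSS up to 50 kb, for example 50.0% against 59.3% at 5 to 10 kb, while beyond 50 kb it was 68.8% against 67.5%. The single bands were not tested. In the genome, 0.875% of the windows of first introns and 0.860% of those of later introns held a site.

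First introns also held more peaks for their length. They gave 714 of the 2175 intronic peaks (32.8%, 30.9 to 34.8%), against 27.2% of the eligible intron territory, which comes to 2.87 peaks per Mb in first introns and 2.20 in later ones. Second introns were between them at 2.47 per Mb and the third introns were at 1.98. Introns beyond the tenth had 2.00 peaks per Mb. The intron number was taken from 1 representative transcript per peak, protein-coding first and then the longest. When a first intron of any transcript was counted, the share was 43.6% against 37.5% of the territory, and when it had to be the first of every transcript, 28.6% against 23.8%.

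The density of intronic peaks fell with distance from the nearest TSS. It was 4.31 per Mb at 1 to 2 kb (exact Poisson interval 3.75 to 4.92, 214 peaks), 2.80 at 2 to 5 kb, 2.95 at 5 to 10 kb and 1.49 beyond 50 kb (1.34 to 1.66, 332 peaks). The higher density of first introns was largest close to the TSS. At 1 to 2 kb they held 5.71 peaks per Mb (4.72 to 6.84) against 3.31 in later introns (2.68 to 4.04), and these intervals did not overlap. At 5 to 10 kb the order was the other way, 2.80 against 3.02 per Mb, with overlapping intervals. By distance from the start of the host transcript instead, the intervals of first and later introns overlapped in every band. The densities were then 6.21 (4.88 to 7.80) and 5.31 per Mb (3.09 to 8.51) at 1 to 2 kb. At 20 to 50 kb they were 2.79 and 2.81. The median intronic peak lay 12963 bp from the nearest TSS, against 18683 bp for the grid points of eligible intron, and sat in an intron of 21175 bp, against 29348 bp for the grid.

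The difference between first and later introns was larger for peaks without a p53 site. Outside the families, first introns had 1.29 peaks without a site per Mb (1.15 to 1.43) and later introns 0.807 (0.740 to 0.878). For peaks with a site the densities were 1.24 (1.11 to 1.39) and 1.13 (1.05 to 1.22), whose intervals overlap. Both kinds thinned out with distance from the TSS, peaks with a site from 1.95 per Mb at 1 to 2 kb to 0.786 beyond 50 kb and peaks without a site from 1.99 to 0.436. Over the same bands, intergenic peaks with a site went from 1.68 to 0.443 per Mb.

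**Figure D2:**
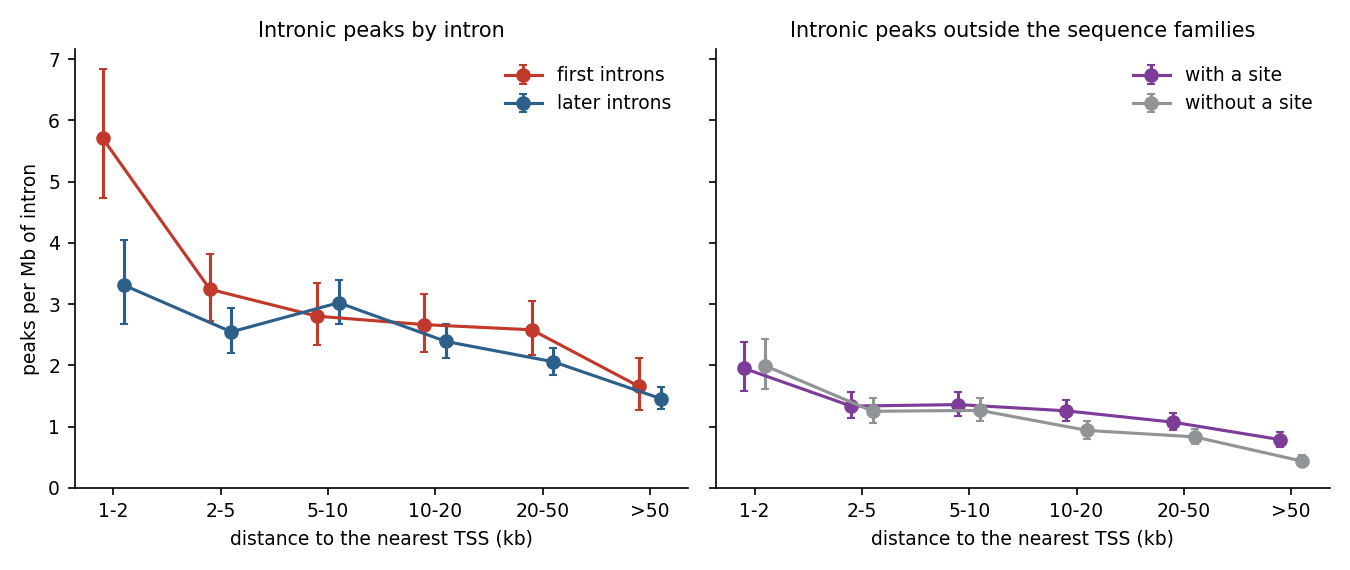
Intronic peaks per Mb of eligible intron (vertical axis) by distance to the nearest TSS in kb, for first and later introns on the left and, outside the repeated families, for peaks with and without a p53 site on the right; bars are exact 95% Poisson intervals. First introns stand apart at 1 to 2 kb with 5.71 peaks per Mb. The curves for peaks with and without a site draw apart beyond 10 kb, ending at 0.786 and 0.436. Their intervals overlap up to 50 kb and not beyond.

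To see which sites carried a peak, all p53 sites of the intron territory were taken from the genome, and a site had a peak when any peak of the list was centred within 100 bp of it. Of 43556 such sites 1527 had a peak, which is 3.51%. The share fell with each further mismatch. Outside the families a peak lay at 50 of 120 sites without mismatch (41.7%, 33.2 to 50.6%), at 279 of 1311 with 1 mismatch (21.3%, 19.2 to 23.6%), at 494 of 8127 with 2 (6.08%, 5.58 to 6.62%) and at 429 of 33668 with 3 (1.27%). Of the family copies with a site in introns, 275 of 330 had a peak (83.3%, 78.9 to 87.0%). The families were built from the windows of called peaks, so this share follows in part from how the copies were defined and is not a comparison with the other sites.

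At the same number of mismatches the core bases separated the intron sites further. Over all intron sites with 1 mismatch, families included, 13.4% of those without CATG had a peak, 42.0% of those with CATG in 1 half-site and 52.9% of those with CATG in both (both against none, Fisher's exact test, adjusted p = 5.1e-26 over 5 tests). With 2 mismatches the shares were 1.98%, 9.41% and 19.3% (exact test, adjusted p = 4.7e-88), and with 3 they were 0.436%, 2.00% and 2.86% (exact test, adjusted p = 3.6e-48). Among sites without mismatch, 55 of 115 without CATG and 7 of the 10 with CATG in both had a peak (exact test, adjusted p = 0.21). Outside the families the shares at 1 mismatch were 10.9%, 26.5% and 52.7%, and the step from 0 to 1 CATG core was smaller. These values are a description, since family copies were defined from called peaks and 114 of the 117 intron copies with 1 mismatch and 1 CATG core had a peak. In the intronic peaks outside the families, 59.9% of the half-sites had CATG, 14.2% CTTG, 12.3% CAAG and 3.81% CTAG. In intron sites without a peak CATG made up 30.8% and CTAG 12.4%, but these 2 sets were not matched on the number of mismatches.

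**Figure D3:**
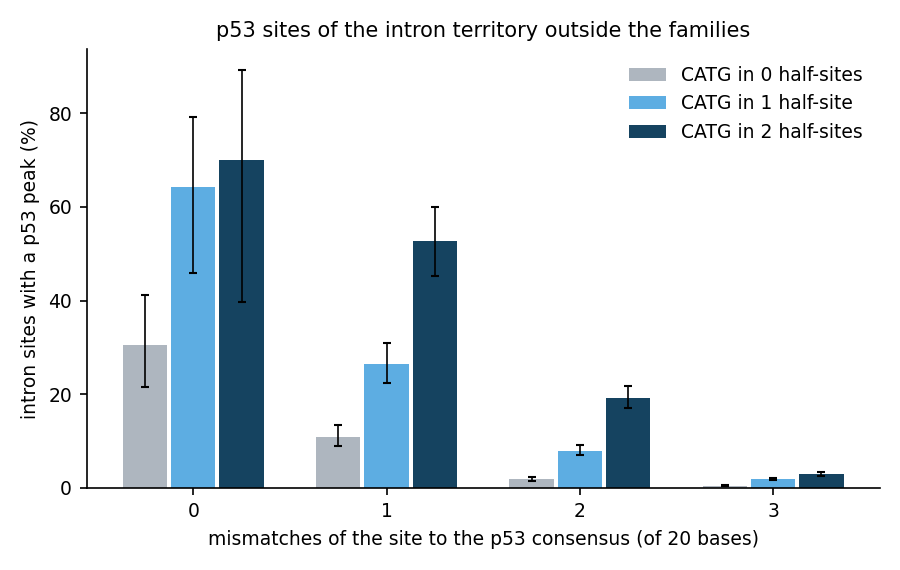
Share of intron p53 sites outside the repeated families that had a p53 peak (%, vertical axis) by the number of mismatches of the site, with bars for sites with CATG in 0, 1 or 2 half-sites; error bars are 95% Wilson intervals. At 1 mismatch the bars rise from 10.9% to 52.7% with the number of CATG cores, and at 3 mismatches all are under 3%.

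The mismatches of bound sites were not spread evenly over the 20 bases. Among intronic peaks with a single mismatch outside the families, 22.9% of the mismatches were at the inner ends of the half-sites, where they meet, and 20.3% at the outer ends of the site. Only 5.63% were at the pair of bases next to the inner side of a core, against 17.4% in the sites without a peak, and 6.93% were at the A or T of a core, against 22.4%. With 3 mismatches these positions were again the least often mismatched for their number of bases, 4.76% next to the inner side of a core against 16.4% and 8.68% in the A or T of a core against 16.3%. These shares are given as a description.

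Compared with intergenic sites over all sites, families included, intron sites had a peak less often with few mismatches. The shares were 63.1% against 75.7% without mismatch (Fisher's exact test, adjusted p = 0.0026) and 28.6% against 37.9% with 1 mismatch (exact test, adjusted p = 2.0e-08). With 2 mismatches they were 6.59% and 6.58% (exact test, adjusted p = 0.98), and with 3 they were 1.33% and 1.16% (exact test, adjusted p = 0.053). Outside the families the shares were 41.7% against 47.0% without mismatch, 21.3% against 15.8% with 1, 6.08% against 4.36% with 2 and 1.27% against 0.983% with 3, so the direction turned at 1 mismatch. These latter values are given without a test, since the families were built from called peaks and leaving them out took away 602 intergenic and 137 intron sites with 1 mismatch that had a peak. No difference between first and later introns was detected at any number of mismatches over all sites (Fisher's exact test, adjusted p between 0.17 and 0.90). Outside the families none was detected either (adjusted exact p between 0.25 and 0.68), though that subset again depends on called peaks. At 1 mismatch outside the families the first introns had 19.7% (15.8 to 24.2%) and the later introns 21.9% (19.4 to 24.6%). Between 1 to 2 kb from a TSS and beyond 50 kb, the share of intron sites with a peak went from 10.2% to 4.53% with 2 mismatches and from 1.68% to 0.876% with 3. With 1 mismatch it went from 24.7% to 18.4%, with overlapping intervals, and without mismatch from 44.4% of 9 sites to 48.1% of 27.

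Within the ranked range, the intronic share stayed between 33.9% and 37.3% in bands of 1000 peak numbers. The share of intronic peaks with a site went from 52.5% among numbers 501 to 1500 to 66.7% among 5501 to 6500. The share of family copies moved with it, at 3.22% of the intronic peaks in the first band and 21.7% in the last. Outside them the shares were 51.5% (46.4 to 56.6%) and 59.2% (53.4 to 64.8%). Since the number chose the peaks, these are given without a test. At the limits of the range, the intronic peaks just inside lay in Itga8 (number 501), Zhx1 (502), A330023F24Rik (6499) and Cwc22 (6501), and those just outside in Ssbp2 (494), Rbm47 (500), Accsl (6503) and Prkdc (6504). At the TSS limit, the nearest members lay 1001 bp (Clic1) and 1002 bp (Nr6a1) from a TSS, and the nearest peaks left out 985 bp (Krit1) and 983 bp (Usp7).

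The intronic peaks lay in 1745 host genes, of which 1642 were protein-coding. Of the 17065 protein-coding genes with at least 1 kb of eligible intron, 1639 hosted an intronic peak, or 9.6%. Most hosts, 1418, had a single peak, 327 had 2 or more and 58 had 3 or more, and among all protein-coding genes with eligible intron 1.83% had 2 or more. Hosts were long genes, with a median of 72 kb of eligible intron against 17 kb for all these genes. A peak of the list at a promoter was present in 8.18% of the protein-coding hosts and in 7.01% of the other protein-coding genes.

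Long genes were hosts more often but held fewer peaks for their length. The share of hosts went from 1.56% (1.28 to 1.89%) of genes with up to 10 kb of eligible intron to 56.2% (49.0 to 63.2%) of those with more than 500 kb. The density went the other way, from 3.33 peaks per Mb in the shortest class to 3.14 in genes of over 50 and up to 100 kb, 1.71 in genes of over 200 and up to 500 kb and 1.21 in the longest.

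**Figure D4:**
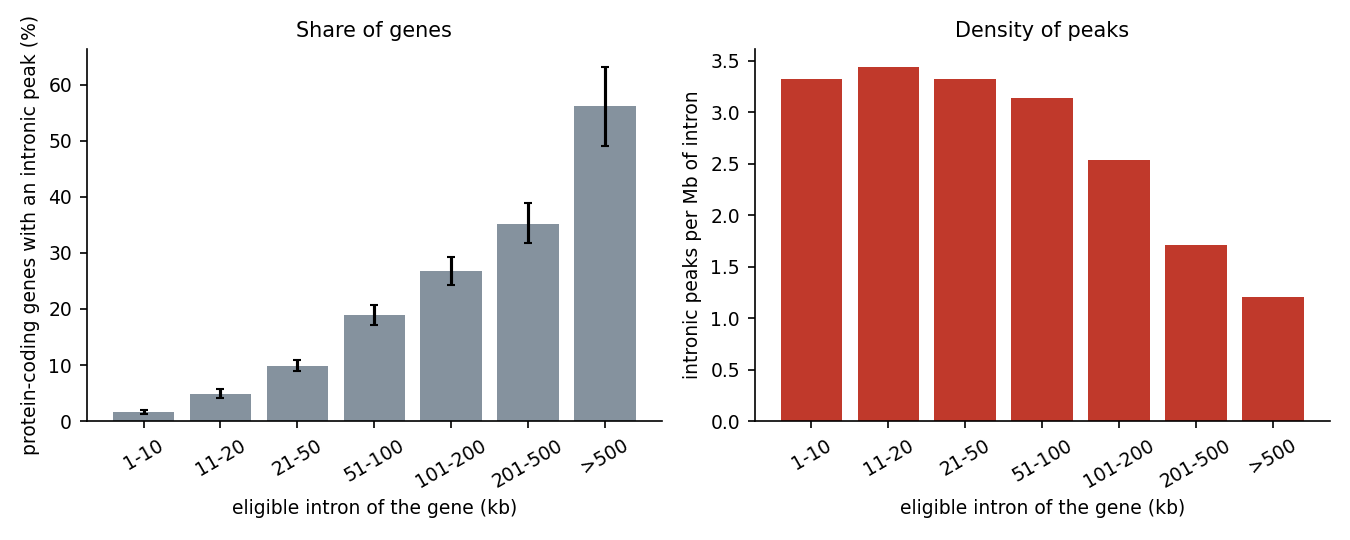
Protein-coding genes with an intronic peak (%, left, with 95% Wilson intervals) and intronic peaks per Mb of eligible intron (right) by the length of eligible intron of the gene in kb. The share of genes climbs to 56.2% in genes with over 500 kb, while the density drops to 1.21 per Mb.

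The 3 genes with the most peaks owed their place to introns over 1 Mb in the annotation, which span other genes. Gm20388 had 24 peaks in an intron of 4384418 bp that spans 72 other protein-coding genes, and Arfip1 and Fgfr2 had 8 each, in introns that span 5 and 31. Without these 40 peaks, 1742 host genes were left. Among the other hosts with many peaks were Fhit with 6, Ppm1h with 5, and Ano10, Ptpn14, Zfhx3 and Pdzd2 with 4, none with a promoter peak. Fhit, a tumour suppressor gene at a common fragile site, held its 6 peaks in introns 2 and 5, and 3 of them were copies of the families. With 1596 kb of eligible intron its density was 3.76 per Mb, well under the 19.9 per Mb of Ppm1h, a protein phosphatase gene.

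Ppm1h held the closest pair of intronic peaks in any gene, with centres 105 bp apart in intron 4. The peak numbered 2258 had a site with 1 mismatch and the neighbour, numbered 3232, a site with 2, and both sites had CATG in each core. Their 200 bp windows overlap by 95 bp and were joined as similar to each other, and to no other peak. The sites are printed to show how alike they are, on the plus strand of mm9.
Ppm1h, peak 3232: ataCATGttcataCATGttc
Ppm1h, peak 2258: gaaCATGttcatgCATGttc
The other Ppm1h peaks, in introns 1 and 2, had no site. Across all hosts, 430 pairs of neighbouring peaks shared a gene, at a median distance of 42708 bp. Of these, 191 shared an intron and 4 were within 1 kb.

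The densest hosts with at least 3 peaks were Ubtd1 (60 peaks per Mb), Rtn4rl1 (42.9), Ano10 (35.1), Ptpn14 (31.5) and Add3 (30.9). All 3 peaks of Ubtd1, a ubiquitin domain gene, lay in its first intron of 49880 bp, and each had a site, with 1, 1 and 2 mismatches. Rtn4rl1, a Nogo receptor homologue, and Add3, which encodes gamma adducin of the membrane skeleton, had 1 site each in 3 first-intron peaks. Ptpn14, a protein tyrosine phosphatase gene, had 4 peaks from 1423 bp to 116388 bp from its start, of which 3 had a site. Zfhx3, a zinc finger homeobox gene, had sites at 3 of 4 peaks, with 1, 1 and 2 mismatches.

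**Figure D5:**
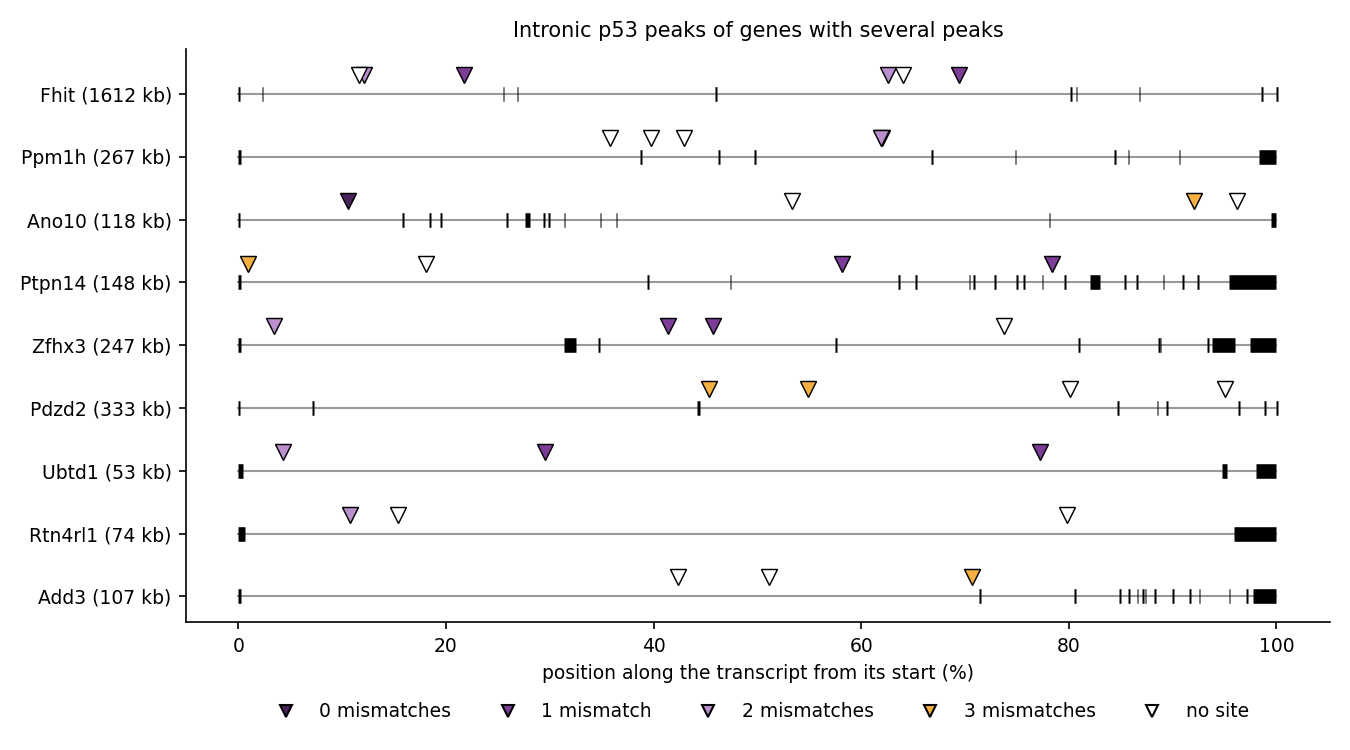
Intronic p53 peaks (triangles) along the representative transcript of genes with several peaks, with position from the transcript start as a share of its length (%, horizontal axis) and exons as black bars; the fill gives the mismatches of the best p53 site. Ubtd1 has a site at each of its 3 peaks, and Fhit has 2 clusters of 3 peaks in introns 2 and 5.

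Of the p53 target genes of cell cycle arrest, feedback and the p53 family, 4 of 31 with eligible intron hosted an intronic peak. These were Trp73, the p53 relative p73 (number 1452), Sesn1, a stress-induced sestrin (1014), Notch1, a receptor of cell fate (4087), and Rfwd2, which encodes the p53 ubiquitin ligase COP1 (6299). The share, 12.9%, can be set beside the 9.6% of all protein-coding genes and the 4.89% of those with over 10 and up to 20 kb of eligible intron, the class of the list's median of 14 kb. Per Mb of eligible intron the list held 4.37 peaks, against 3.44 in that class. Trp73 alone had a site, with 1 mismatch, in its first intron 8694 bp from the nearest TSS. Sesn1 and Notch1 also had their peaks in the first intron, and Rfwd2 in intron 18. Trp73 and Sesn1 had a promoter peak as well.

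Of the p53 target genes of cell death, 6 of 28 hosted an intronic peak (21.4%, beside 9.6% of all protein-coding genes and 4.89% of those with over 10 and up to 20 kb of eligible intron, the class of the list's median of 15.5 kb), each with 1. The list held 6.72 peaks per Mb of eligible intron, against 3.44 in that class. Fas, the death receptor, had its peak in the first intron 1709 bp from the TSS (number 3168), with a 2-mismatch site whose cores were both CATG. Bid had a first-intron peak 2237 bp from the nearest TSS (number 1911) and Bbc3, which encodes PUMA, a peak in intron 3 (number 3798), both without a site. The anti-apoptotic genes Bcl2 (number 2578) and Bcl2l1, which encodes BCL-XL (5631), had peaks 82268 bp and 19753 bp from the nearest TSS. The peak of Bcl2l1 had a site with 1 mismatch and that of Bcl2 had none. Bcl2l11, which encodes the BH3-only protein BIM, had a 3-mismatch site in intron 3 (number 4729). Bbc3 and Bcl2l11 had a promoter peak as well. The sites found in these target genes were, on the plus strand of mm9 with cores in capitals, as follows.
Trp73, chr4:153479980-153479999: agaCAGGtccagaCTTGccc
Fas, chr19:34366854-34366873: gggCATGtacaaaCATGtca
Bcl2l1, chr2:152618371-152618390: caaCTAGtccggaCAAGtcc
Bcl2l11, chr2:127977570-127977589: ggaCATGtgcaggCATGagt
Fas and Bcl2l11 had CATG in both half-sites, and Trp73 and Bcl2l1 in neither.

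Of 40 hematopoietic transcription factor genes, 11 hosted 17 intronic peaks (27.5% of the genes, 3.99 peaks per Mb). Of all protein-coding genes 9.6% were hosts, and of those with over 50 and up to 100 kb of eligible intron, the class of the list's median of 71 kb, 18.9% were hosts with 3.14 peaks per Mb. Runx1, a master regulator of blood stem cell formation, had 3, in introns 2, 2 and 6, and 1 of them held a 2-mismatch site with CATG in both cores. Runx2, Erg, Foxo3 and Elf1 had 2 each, and Ldb1, Etv6, Mecom, Pax5, Bcl11a and Bcl6 had 1 each. Sites with 1 mismatch lay in Pax5, the B cell commitment factor (intron 7, number 3070), and in Bcl11a, a repressor of fetal globin (intron 2, number 886). Of the 17 peaks 6 held a site and none was a family copy, beside a site in 55.3% of the intronic peaks outside the families.

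Genes of B cell and cytokine receptor signalling were hosts in 6 of 33 cases (18.2%), near the 18.9% of all protein-coding genes with over 50 and up to 100 kb of eligible intron, the class of the list's median of 56 kb. Per Mb of eligible intron the list held 2.12 peaks, against 3.14 in that class. There was 1 peak each in Lyn, Pik3cd, Pik3ap1, Prkcb, Csf2rb and Cd44. Lyn, a Src family kinase of the B cell receptor, had a 1-mismatch site in intron 9 (number 1589), and Pik3ap1 a 3-mismatch site. Csf2rb, the shared beta chain of the interleukin-3 receptor, on whose ligand Ba/F3 cells depend, had its peak in the first intron 2652 bp from the TSS, without a site.

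Very long genes were hosts in 27 of 44 cases (61.4%) with 46 peaks, at a density of 0.951 per Mb. Of all protein-coding genes with over 500 kb of eligible intron, 56.2% were hosts, with 1.21 peaks per Mb. Among the hosts were Csmd1, Csmd3, Macrod2, Dlg2, Dmd, Fhit, Wwox, Immp2l, Cntnap2, Nrxn3, Ptprd, Cdh13, Dpp6, Pcdh15, Dab1, Sgcz, Lsamp, Ctnnd2, Grm7, Prkg1, Agbl4, Exoc4, Foxp1, Rora, Fto and Opcml. Of their peaks, 34 had a site and 15 were family copies, beside 59.5% and 11.8% of all intronic peaks. The copies included both peaks of Immp2l, which had the same 20-base site without mismatch. That site, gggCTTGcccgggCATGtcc, with the cores in capitals, was the most frequent of the exact sites and lay at 15 intronic peaks, all of them family copies. Altogether the 98 exact sites comprised 65 distinct sequences, and 56 of the 98 were family copies.

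Peaks with and without a p53 site also differed in other sequence features. Outside the families the intronic peaks without a site had a mean GC content of 49.4% ± 6.51 (SD, n = 857) in 200 bp, against 46.9% ± 6.09 (SD, n = 1062) for those with a site. Peaks without a site in first introns were at 50.0%. All intronic peaks together had 48.0% GC and intergenic ones 47.5% (permutation test, p = 0.0047), but over the 100 bp of the peak the order was reversed, 49.7% against 50.0% (p = 0.047). The letters TGANTCA, the binding motif of AP-1, were present on either strand in 83 of 857 intronic peaks without a site (9.68%, 7.88 to 11.8%) and in 5.93% of those with a site (Fisher's exact test, adjusted p = 0.017 over 7 motifs). The grid of eligible intron had them in 5.99% of windows and the whole peak list in 12.8%, above the intronic peaks of either kind. For AGGAAGT, a core of PU.1 sites, the shares were 7.93% and 5.46% (exact test, adjusted p = 0.12), against 4.76% of the grid and 5.34% of the whole list. The other 5 motifs did not pass the exact test, with adjusted p from 0.12 to 0.76. For ETS factors the letters searched were CGGAAGT, for RUNX factors TGTGGTT and for GATA factors AGATAAG. The remaining motifs were the GC box of SP1, searched as GGGCGGG, and that of NRF1, searched as GCATGCG, which can overlap a p53 core. In the intronic peaks without a p53 site, the intron grid and the whole list, the ETS letters were found in 0.583%, 0.374% and 1.63% of windows. The shares in the same order were 6.65%, 4.87% and 4.25% for the RUNX letters and 4.08%, 2.94% and 3.18% for the GATA letters. They were 2.68%, 0.926% and 11.9% for the SP1 letters and 2.10%, 0.652% and 2.70% for the NRF1 letters. The 7 motifs were found in none of 604 of the 857 peaks without a site, and a match or its absence says only which letters are in the window.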

How the data were processed

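p53 ChIP-Seq peaks came from Ba/F3 cells, untreated and 3 h after 3 Gy, and untreated HPC7 cells, with 1 library per condition. The authors mapped reads with Bowtie 1.0.0 to mm9 and called peaks with MACS 1.4.1 per the labels. The deposited list gives positions of 100 bp and a peak number, a score that orders peaks by change in binding after irradiation. No count, signal or depth is in it, so precision is limited by the number of peaks, and how calls of several libraries were merged was not given in the sources used here.

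Peak centres were placed in the GENCODE M1 annotation of mm9 (95458 transcripts). Eligible intron was measured on a 1 kb grid of the genome under the same rule. p53 sites were searched in 200 bp windows, and the search and tests were tested on simulated data. Windows were joined into families with BLAST+ 2.17.0 (word size 11, e-value 1e-10). Shares carry 95% Wilson intervals and densities exact Poisson intervals, which cover counting error only. Fisher's exact and permutation tests (100000 resamples) were two-sided, with Benjamini-Hochberg adjustment. The tests of intron against intergenic genome sites and of CATG cores (over all sites), the splits by site and the short motifs were added after the first values were seen.

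Genes were named by rule, namely the 10 protein-coding hosts with the most peaks, the 5 densest hosts with 3 or more, all hosts on the gene lists, the hosts of the 10 lowest-numbered peaks among those with a site without mismatch, and those at the limits. Some of these genes, a list of p53 targets and another list are not reported here, so the lists given are not the whole set. The members and lists were chosen with earlier results of these data known. Alternatives were other TSS limits, annotations, mismatch limits, windows, spacers, merging of near peaks, host rules and family thresholds, and leaving out the families. Python 3.11.15, NumPy 2.4.6, SciPy 1.17.1, pandas 2.3.3, networkx 3.6.1 and matplotlib 3.10.9 were used.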

Additional observations from a re-analysis of the deposited data

How the results depend on the processing

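Over the results and alternatives tried, 44 values stayed within their error or on the same side of the threshold, 15 moved, 2 lost their call and 1 changed direction. The difference in site share between intronic and intergenic peaks was lost without the repeated families (-0.024 percentage points against -8.91), as was that in mismatches (0.044 against 0.318). Leaving the families out removes the copies themselves, of which intergenic peaks held more. The GC difference turned from 0.462 to -0.380 percentage points in the 100 bp of the peak, and the cause was not tested. Beside these counts, the share of intron against intergenic sites with a peak turned from 28.6% against 37.9% to 21.3% against 15.8% at 1 mismatch without the families, and from 3.51% against 4.15% to 2.90% against 2.17% over 0 to 3 mismatches. The first-intron share was 35.4% with a TSS limit of 500 bp and 29.9% with 2.5 kb, when first introns made up 27.7% and 26.0% of the territory, and 43.6% or 28.6% when counted over any or every transcript. The share with a site was 42.9% with at most 2 mismatches, 67.1% with at most 4, 55.3% without the families, 56.1% within 50 bp and 80.1% with spacers. The share of intron sites with a peak was 10.98% with at most 2 mismatches, 1.30% with at most 4, 2.90% without the families and 3.31% within 50 bp. Of family 1, 75.9% was reversed in protein-coding hosts with introns up to 1 Mb. The median distance to the host start was 37139 bp from the representative transcript and 18564 bp from the nearest start of the host. No paired analysis was possible because there was 1 library per condition and the list analysed here holds no values of single libraries. The list's unknown depth limits every share of sites with a peak.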

Other observations

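The density of intronic peaks outside the repeated families varied between chromosomes. It was 4.05 per Mb of eligible intron on chromosome 19 (exact Poisson interval 3.29 to 4.92, 100 peaks) and 0.786 on the X chromosome (0.548 to 1.09, 35 peaks), and between 1.46 and 2.80 on the other autosomes. The same order was seen among sites with the same number of mismatches, which were not matched on their core bases. Of intron sites with 1 mismatch outside the families, 16 of 36 had a peak on chromosome 19 (44.4%, 29.5 to 60.4%), 6 of 50 on the X chromosome (12%, 5.62 to 23.8%) and 20.98% on the other chromosomes together. With 2 mismatches the shares were 10.7%, 2.58% and 6.06%. These chromosomes were picked after their values were seen and no test was made.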
